A study of Mus musculus with 4 samples.

Results

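LIM-homeodomain transcription factors and the cofactors that join them to other proteins were followed in cells of the mouse hindlimb bud. The set held 9 genes, taken by symbol: the LIM-homeodomain genes Lhx2, Lhx9, Lmx1b, Lmx1a and Isl1, the LIM-domain-binding genes Ldb1 and Ldb2, and the LIM-only genes Lmo1 and Lmo4. All 9 were found among the 25239 gene symbols of the count table, and all 9 passed the filter on low counts that kept 14610 genes. RNA came from FVB embryos at embryonic day 11.5. All samples are labelled wild-type in genotype and carry the same reporter at the H11 locus: the human ZRS, a limb enhancer of Shh, with the 404G>A change and an hsp68 promoter, driving the red fluorescent protein mCherry. After dissection and sorting, anterior cells positive for mCherry (2 libraries) were compared with central cells negative for mCherry (2 libraries). Position in the bud and activity of the reporter therefore differ together between the groups and cannot be told apart. The labels do not say whether the libraries of a group came from separate embryos, so p-values measure the spread between these libraries, which may be technical.

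LIM-homeodomain proteins carry a pair of LIM zinc-finger domains and a homeodomain that binds AT-rich DNA. Their LIM domains bind Ldb proteins, which form dimers and so bring several LIM proteins and distant DNA sites together, while Lmo proteins have LIM domains but no homeodomain and compete for, or bridge through, the same Ldb partners. In the limb bud, Lhx2 and Lhx9 act in the distal mesenchyme during outgrowth, Lmx1b specifies dorsal identity downstream of Wnt7a from dorsal ectoderm, and Isl1 acts early in the hindlimb field upstream of Hand2.

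Library totals ranged from 30080925 to 33257383 counts. Levels are given as CPM, the counts of a gene per 1 M counts of its library after TMM scaling. A floor of 3 counts was equal to between 0.0899 and 0.102 CPM. The limb mesenchyme markers Prrx1 and Tbx4 were at 641 to 717 and 225 to 267 CPM in the 4 libraries. Of the 5 limb mesenchyme markers, these and Pitx1 were not called, and Prrx2 and Twist1 were called higher in anterior cells (log2 fold changes of 1.91 and 0.83). The erythroid markers summed to 3304 and 8425 CPM in the anterior libraries against 6.85 and 10.1 in the central ones, with all 9 called higher. Ectoderm markers summed to 9.71 and 10.1 against 49.4 and 151 CPM, and myogenic markers to 0.750 and 0.511 against 84.6 and 71.7 CPM. Cartilage progenitor markers summed to 357 and 265 against 1338 and 1062 CPM. Sox9, Sox6 and Col2a1 were called lower, Sox5 and Acan were not called and Matn1 was not tested. Col2a1 alone measured 140 and 96.6 CPM in the anterior libraries against 900 and 676 CPM in the central ones. The part of these differences in the results below was not tested. In these sorted mixtures, fewer cells of a type and less RNA per cell cannot be told apart.

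Of the 9 genes, 5 were higher in anterior cells (Lhx2, Lhx9, Lmx1a, Lmo1 and Lmo4), 2 were lower (Isl1 and Ldb2), and Lmx1b and Ldb1 were not called. A call means that the quasi-likelihood F test of edgeR, after Benjamini-Hochberg adjustment over all 14610 genes, gave an adjusted p under 0.05. Differences between groups are log2 fold changes, anterior over central. The background was high, since 22.9% of all tested genes were called, 10.7% as higher and 12.3% as lower in anterior cells. The median log2 fold change, anterior over central, was 0.52 over the 9 genes and -0.0087 over all tested genes. The values of the groups did not overlap for the 7 called genes and overlapped for Lmx1b and Ldb1, against 63.5% of all tested genes without overlap.

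**Figure D1:**
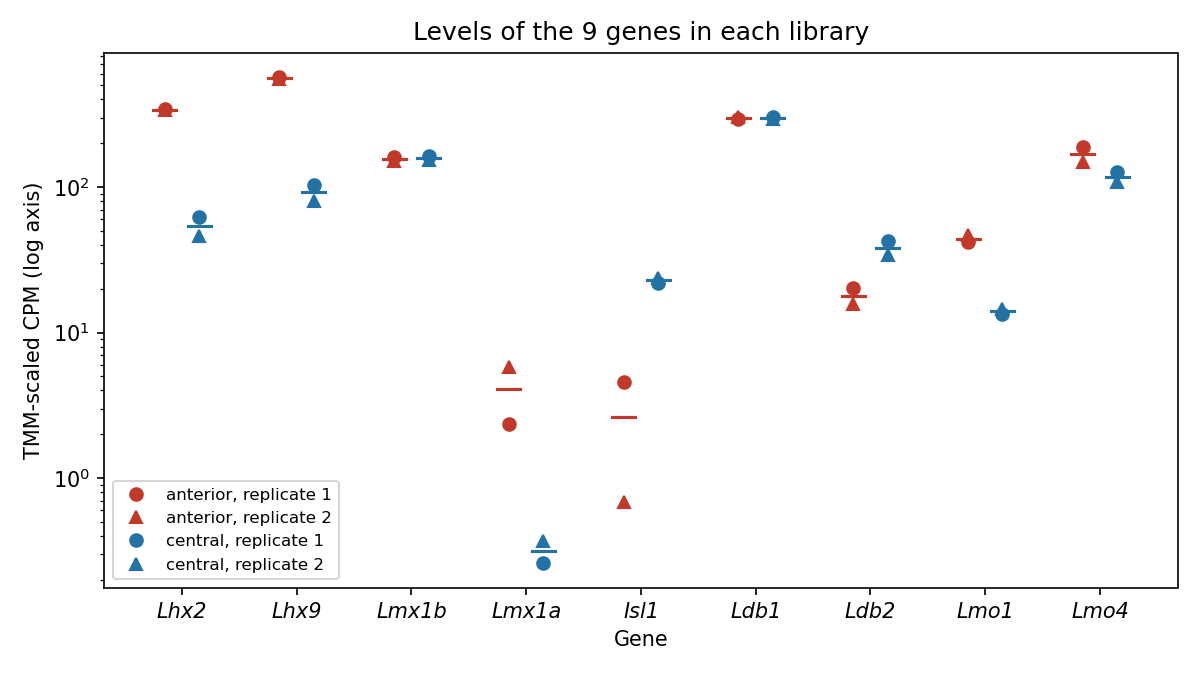
TMM-scaled CPM (log axis) of each of the 9 genes in the 4 libraries, with anterior in red, central in blue, circles for replicate 1, triangles for replicate 2 and a bar at the mean of each group. Lhx2 and Lhx9 lie above 330 CPM in both anterior libraries and at or below 104 in both central ones, and the points for Isl1 and Lmx1a are far apart between the anterior replicates.

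The promoters of the 3 genes with the largest well-measured rises (Lhx2, Lhx9 and Lmo1) and of Lmx1b, which stayed level, are shown because these genes encode or serve DNA-binding proteins whose homeodomains recognise a TAAT core. The windows run from 250 bases before to 50 bases after the start site in RefSeq (GRCm38.p6), are written 5′ to 3′ on the gene's strand, and lie at chr2:38339031-38339330 (plus strand) for Lhx2, chr1:138842395-138842694 (minus strand) for Lhx9, chr7:109175158-109175457 (minus strand) for Lmo1 and chr2:33641049-33641348 (minus strand) for Lmx1b. Capitals mark TAATTA, the palindromic LIM-homeodomain motif.
Lhx2: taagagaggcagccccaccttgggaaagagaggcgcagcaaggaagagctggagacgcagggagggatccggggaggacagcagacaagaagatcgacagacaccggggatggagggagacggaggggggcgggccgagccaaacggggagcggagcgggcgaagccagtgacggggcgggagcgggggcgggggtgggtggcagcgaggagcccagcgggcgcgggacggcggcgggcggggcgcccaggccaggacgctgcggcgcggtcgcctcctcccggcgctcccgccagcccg
Lhx9: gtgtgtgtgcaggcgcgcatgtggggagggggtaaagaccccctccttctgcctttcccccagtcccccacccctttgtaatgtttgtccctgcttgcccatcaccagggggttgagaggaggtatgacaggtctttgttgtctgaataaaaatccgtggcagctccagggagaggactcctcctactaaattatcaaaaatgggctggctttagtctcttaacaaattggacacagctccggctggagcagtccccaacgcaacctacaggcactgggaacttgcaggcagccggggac
Lmo1: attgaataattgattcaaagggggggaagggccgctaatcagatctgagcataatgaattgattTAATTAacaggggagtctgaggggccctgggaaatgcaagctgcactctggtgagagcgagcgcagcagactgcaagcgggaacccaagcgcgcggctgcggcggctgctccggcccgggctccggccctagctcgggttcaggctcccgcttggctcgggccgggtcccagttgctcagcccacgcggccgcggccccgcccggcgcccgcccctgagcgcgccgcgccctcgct
Lmx1b: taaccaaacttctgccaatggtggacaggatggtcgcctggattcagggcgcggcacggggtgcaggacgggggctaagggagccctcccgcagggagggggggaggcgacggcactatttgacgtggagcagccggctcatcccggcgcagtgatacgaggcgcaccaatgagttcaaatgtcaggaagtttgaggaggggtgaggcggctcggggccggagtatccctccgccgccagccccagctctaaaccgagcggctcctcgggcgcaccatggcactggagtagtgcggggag

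RefSeq start sites matched 8 of the 9 genes, all but Ldb2, with 14 windows in all. Of these 8 genes, only Lmo1 held TAATTA in a window, with its first base 186 bases before the start site shown. The same site lies 244 bases before a second annotated Lmo1 start. TAATTA occurs in 5.29% of all 32851 promoter windows of 300 bases, and in a window of 6.12% of all genes listed. The shorter core TAAT, searched on both strands and also counted inside TAATTA, was present in windows of 5 of the 8 genes, against 61.4% of all genes, and in 7 of the 14 windows, against 58.0% of all windows. The Lmo1 window shown held 5 such cores, including those inside TAATTA, and the window of the second Lmo1 start held 2. The Lhx9 window shown held 2, and the Lhx2 and Lmx1b windows shown held 0. The GC content of the windows shown was 74.7% for Lhx2, 55.3% for Lhx9, 66.3% for Lmo1 and 65.7% for Lmx1b. A match of letters describes the window and does not show binding.

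Lhx2 and its close relative Lhx9, distal mesenchyme factors with overlapping roles in limb outgrowth, were about 6-fold higher in anterior cells. Lhx2 (chr2:38339281-38369733, plus strand; positions of the genes are from GENCODE M21, GRCm38) measured 344 and 338 CPM in the anterior libraries, against 62.7 and 46.1 CPM in the central ones. Both anterior values were far above both central values, and the anterior replicates were closer to each other than the central ones. Anterior cells averaged 341 ± 4.83 CPM and central cells 54.4 ± 11.8 CPM (SD, n = 2), and the log2 fold change was 2.65 (SE 0.13; adjusted p = 3.72e-06, edgeR). Lhx9 (chr1:138825186-138848577, minus strand) measured 568 and 554 CPM in the anterior libraries against 104 and 80.5 CPM in the central ones. Its groups were as clearly separated, and the log2 fold change was 2.60 (SE 0.11; adjusted p = 2.13e-06, edgeR). Of the 14610 tested genes, 107 had a larger rise than Lhx2 and 113 a larger rise than Lhx9.

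The balance between Lhx2 and Lhx9 hardly moved while both levels changed. The ratio of Lhx2 to Lhx9 counts within a library, which does not depend on library scaling, was 0.607 and 0.609 in the anterior libraries, against 0.604 and 0.572 in the central ones. On the log2 scale the groups differed by 0.049, with a pooled SD between replicates of 0.039. With 2 libraries against 2, an exact permutation test cannot go below p = 0.333, and no test of this difference was run. By contrast, Lmx1b counts were 0.468 and 0.447 of Lhx2 counts in the anterior libraries and 2.62 and 3.33 times those of Lhx2 in the central ones, a log2 difference of -2.69 with a pooled SD of 0.18.

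**Figure D2:**
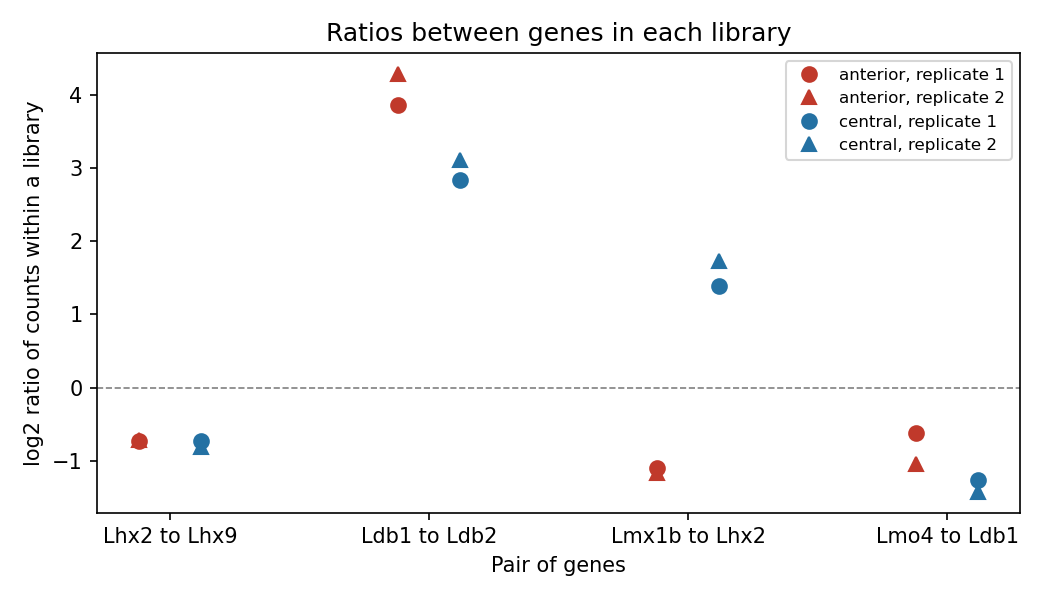
log2 ratio of the counts of 2 genes within each library, for 4 pairs, with anterior in red, central in blue, circles for replicate 1 and triangles for replicate 2. The Lhx2 to Lhx9 ratio lies between -0.81 and -0.71 in all 4 libraries, whereas the Lmx1b to Lhx2 ratio is below 0 in both anterior libraries and above 0 in both central ones.

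Likeness of pattern was measured as the Euclidean distance between log2 CPM values centred on their mean over the 4 libraries, among genes with a mean of at least 10 CPM. Over these 4 libraries, which fall into 2 groups, the 3 genes nearest to Lhx2 were Lhx9 (distance 0.074), the homeobox gene Evx1 (0.080) and the homeobox gene Msx2 (0.17). The 3 nearest to Lhx9 were Evx1 (0.056), Lhx2 (0.074) and Msx2 (0.21). Evx1 measured 90.8 and 93.5 CPM in the anterior libraries against 17.0 and 13.1 in the central ones. Lmo1, the next most similar of the 9 genes, was at a distance of 1.09 from Lhx2, and 47 of the genes compared lay closer to Lhx2.

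Lmx1b (chr2:33560965-33640511, minus strand), the dorsal determinant, was abundant at nearly the same level in both populations. It measured 161 and 151 CPM in the anterior libraries, against 164 and 153 CPM in the central ones. The groups overlapped, and the spread between replicates exceeded the difference between the means. The log2 fold change was -0.026 (SE 0.070; 95% interval -0.19 to 0.13; adjusted p = 0.828, edgeR), so a change of the size of Lhx2 or Lhx9 lies outside the interval. The genes nearest to it in pattern were Txndc9 (distance 0.010), Slc25a17 (0.015) and Wdr7 (0.018), which the distance picks for being as level as Lmx1b.

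The ectodermal genes of the dorsoventral axis did not stay level as Lmx1b did. Wnt7a, the dorsal ectoderm ligand that induces Lmx1b, had 4 and 0 counts in the anterior libraries against 58 and 196 in the central ones and was called lower (adjusted p = 0.00236, edgeR). En1, which represses Wnt7a in ventral ectoderm, had 0 counts in both anterior libraries against 38 and 141, at least 29.1-fold lower against a floor of 3 counts per library (adjusted p = 0.00238, edgeR). Both genes and the ectoderm markers were higher in central replicate 2 than in central replicate 1, and 7 of the 8 ectoderm markers were called lower in anterior cells; their part in these results was not tested. In the list of 8 dorsoventral signals and receptors, 2 genes were called higher (Bmp4 and Bmp7, with log2 fold changes of 1.44 and 0.51), 2 lower (Wnt7a and En1) and 4 were not called, with a median of -0.057.

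Lmx1a (chr1:167689237-167848741, plus strand), the paralog of Lmx1b known from the roof plate and midbrain rather than the limb, was scarce and higher in anterior cells. Counts were 78 and 171 for the anterior replicates and 8 and 12 for the central replicates, or 2.34 and 5.83 against 0.260 and 0.371 CPM. Both anterior values were above both central values, but the anterior libraries differed from each other by 2.49 times. The log2 fold change was 3.67 (SE 0.56; 95% interval 2.39 to 4.95; adjusted p = 0.00216, edgeR). It was 2.87 without anterior replicate 2 and 4.19 without anterior replicate 1. The summed erythroid markers differed between the anterior replicates in the same direction and by 2.55 times, and their part in the Lmx1a result was not tested.

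Isl1 (chr13:116298281-116309689, minus strand), the early hindlimb regulator, had the largest fall of the 9 genes. It measured 22.0 and 23.6 CPM in the central libraries but 4.56 and 0.682 CPM in the anterior ones, from 152 and 20 counts. The central replicates were close together, whereas the anterior replicates differed by 6.68 times, and both lay below the central values. The log2 fold change was -3.09 (SE 0.55; 95% interval -4.34 to -1.85; adjusted p = 0.00443, edgeR). Without anterior replicate 1 it was -5.06, and without anterior replicate 2 it was -2.32, so the direction held while the size depended on the library. Hand2, which acts downstream of Isl1 in the hindlimb field, measured 239 and 169 CPM in the anterior libraries against 355 and 343 CPM in the central ones. It was called lower (log2 fold change -0.78, SE 0.13, edgeR adjusted p = 0.00402). A link between the Hand2 and Isl1 differences was not tested. Shh was at 27.4 and 11.7 CPM in the anterior libraries, against 13.2 and 12.2 CPM in the central ones. Its log2 fold change of 0.63 was not called (adjusted p = 0.203, edgeR), became -0.11 without anterior replicate 1, and was called without anterior replicate 2 at 1.11 (adjusted p = 0.000856, edgeR).

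Because Isl1 is also made in neurons, markers of neurons, neural crest and Schwann cells were examined beside it. They summed to 24.2 and 20.3 CPM in the anterior libraries, against 23.7 and 19.4 CPM in the central ones. Of 8 such markers, 6 were tested, 0 were called higher, and Sox10, with 0 counts in both anterior libraries against 70 and 18, was called lower (adjusted p = 0.00703, edgeR).

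Ldb1 (chr19:46031570-46045214, minus strand), the main adaptor that binds LIM domains, was at the same level in both populations. It measured 292 and 304 CPM in the anterior libraries against 303 and 292 CPM in the central ones. The ranges coincided, and the log2 fold change was 0.0011 (SE 0.061; 95% interval -0.14 to 0.14; adjusted p = 0.992, edgeR). The sign of this value was negative with upper-quartile scaling (-0.037) and with library totals alone (-0.030). In the GENCODE M21 annotation, 3.84% of the Ldb1 exon length overlaps exons of Pprc1 on the other strand, and whether counting used strand is not given in the sources used here.

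Ldb2 (chr5:44472132-44799680, minus strand), the second adaptor, was lower in anterior cells. It measured 20.1 and 15.6 CPM in the anterior libraries, against 42.5 and 33.9 CPM in the central ones. The groups did not overlap, and the log2 fold change was -1.09 (SE 0.15; adjusted p = 0.00137, edgeR). The count ratio of Ldb1 to Ldb2 was 14.5 and 19.4 in the anterior libraries against 7.13 and 8.60 in the central ones. Endothelial cells also express Ldb2, and endothelial markers summed to 8.22 and 12.1 CPM in the anterior libraries against 27.7 and 39.2 CPM in the central ones. Of the 8 endothelial markers, 5 were called lower, including Cdh5 and Kdr, 0 were called higher and 3 were not called. Within each group, Ldb2 was higher in replicate 1 and the endothelial sum was higher in replicate 2. The part of endothelial cells in the Ldb2 difference was not tested.

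Both LIM-only genes were higher in anterior cells, by different amounts. Lmo1 (chr7:109138572-109175207, minus strand) measured 42.1 and 46.5 CPM in the anterior libraries against 13.4 and 14.6 CPM in the central ones. Replicates were close and the groups far apart, and the log2 fold change was 1.66 (SE 0.11; adjusted p = 1.74e-05, edgeR). Lmo4 (chr3:144188530-144205220, minus strand), a more abundant member that also occurs in epithelia, measured 190 and 148 CPM against 126 and 109 CPM. The groups were separate, but the gap between the lower anterior and the higher central library was smaller than the spread of the anterior replicates. The log2 fold change of Lmo4 was 0.52 (SE 0.12; adjusted p = 0.0140, edgeR), and without anterior replicate 1 it was 0.33 and no longer called (adjusted p = 0.0786, edgeR). The ratio of Lmo4 to Ldb1 counts was 0.651 and 0.487 in the anterior libraries against 0.416 and 0.374 in the central ones.

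**Figure D3:**
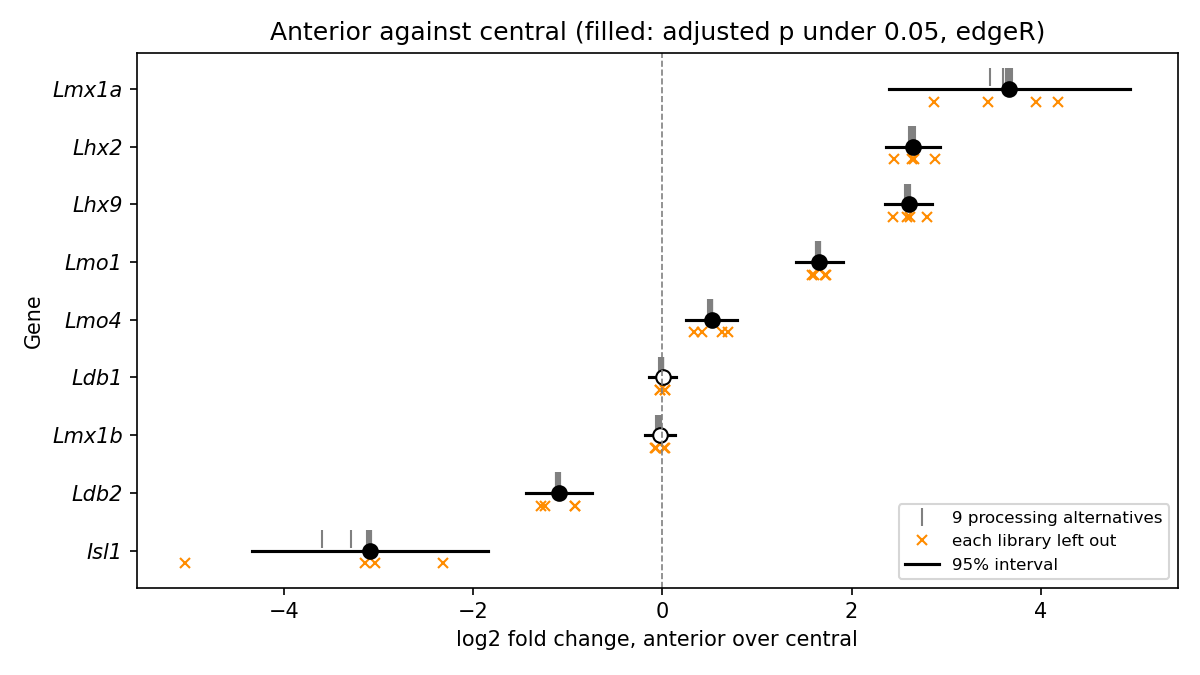
log2 fold change of each gene, anterior over central, with its 95% interval (black line), 9 processing alternatives (grey ticks above) and fits with each library left out (orange crosses below); filled circles passed an edgeR adjusted p-value of 0.05. The intervals of Lmx1b and Ldb1 span 0, and leaving out libraries spreads Isl1 from -5.06 to -2.32.

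To compare levels between genes, CPM was divided by the summed exon length of each gene in GENCODE M21, which counts every annotated exon and so understates genes with long alternative ends. On this scale of CPM per kb, the order in anterior cells was Lhx2 (77.6 ± 1.10, SD, n = 2), Ldb1 (64.6 ± 1.82), Lhx9 (59.1 ± 1.02), Lmo4 (47.8 ± 8.40), Lmx1b (32.0 ± 1.48), Lmo1 (28.5 ± 1.99), Ldb2 (5.36 ± 0.96), Lmx1a (1.20 ± 0.73) and Isl1 (0.662 ± 0.69). Lmx1a and Isl1 were the neighbours in that order whose replicates overlapped. In central cells the order was Ldb1 (64.6 ± 1.82), Lmo4 (33.4 ± 3.44), Lmx1b (32.6 ± 1.61), Lhx2 (12.4 ± 2.68), Ldb2 (11.5 ± 1.83), Lhx9 (9.72 ± 1.74), Lmo1 (9.03 ± 0.52), Isl1 (5.77 ± 0.28) and Lmx1a (0.0928 ± 0.023). Lmo4 overlapped with Lmx1b there, and in the run Lhx2, Ldb2, Lhx9 and Lmo1 each gene overlapped with its neighbour, whereas Lmo1 lay above Isl1. Lhx9 had more counts than Lhx2 in every library but a lower level per kb, since its exons sum to 9494 bases against 4393 for Lhx2.

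The makeup of the LIM-homeodomain pool differed between the populations. The 5 LIM-homeodomain genes summed to 173 and 168 CPM per kb in the anterior libraries and 64.6 and 56.5 CPM per kb in the central ones. Lhx2 and Lhx9 together made up 79.9% and 80.5% of this sum in anterior cells against 39.1% and 33.6% in central cells, where Lmx1b held the larger share at 52.2% and 55.6%. The Ldb sum was nearly level, at 69.4 and 70.6 CPM per kb against 78.6 and 73.5. The sum of Lmo1 and Lmo4 was 80.9 and 71.8 CPM per kb against 44.5 and 40.3. The 5 LIM-homeodomain genes thus measured 2.49 and 2.38 times the Ldb genes in the anterior libraries and 0.821 and 0.769 times the Ldb genes in the central ones. These are transcript levels, and protein was not measured.

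The remaining LIM-homeodomain and LIM-only genes were scarce apart from Lmo2, a partner of Ldb1 and Tal1 in blood and endothelial cells. Of these 9 genes, 4 were tested, 1 was called higher and 2 lower, with a median log2 fold change of -0.78. Lmo2 measured 65.5 and 79.6 CPM in the anterior libraries against 15.8 and 15.0 CPM in the central ones (log2 fold change 2.23, SE 0.12; adjusted p = 5.87e-06, edgeR). Erythroid markers were higher in the same libraries. The anterior replicates differed by 1.22 times for Lmo2 and by 2.55 times for the erythroid sum. The part of erythroid cells in the Lmo2 result was not tested. Isl2, the relative of Isl1, was also lower, with 36 and 25 counts against 83 and 153 (adjusted p = 0.00993, edgeR), a call lost without central replicate 2 (0.0608). Lmo3 was called lower at an edgeR adjusted p-value of 0.0388, a call lost in 3 of the 4 fits that left out a library (anterior replicate 1, anterior replicate 2 or central replicate 1), with adjusted p-values of 0.118, 0.0782 and 0.293, and with limma-voom (0.0702). Lhx3 and Lhx5 were listed at 0 in every library.

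Among 9 genes for proteins that bind Ldb, Lmo or LIM-homeodomain proteins, 4 were called higher, 2 lower and 3 were not called, with a median log2 fold change of 0.20. The shares over all tested genes were 10.7% higher and 12.3% lower. Cbfa2t3, a corepressor of Ldb1 and Tal1 complexes, measured 30.4 and 26.7 CPM in the anterior libraries against 12.0 and 12.4 CPM in the central ones. Its log2 fold change was 1.22 (edgeR adjusted p-value 0.000216). All 9 erythroid markers were called higher in anterior cells, among them Tal1 at 9.86 and 25.0 CPM against 0.877 and 0.618 CPM. Within the anterior group, Cbfa2t3 was higher in replicate 1 and Tal1 in replicate 2. The part of erythroid cells in the Cbfa2t3 result was not tested. The Ssbp proteins, which protect Ldb from degradation, moved in different directions. Ssbp2 was lower (log2 fold change -0.71, edgeR adjusted p-value 0.00943), whereas Ssbp3 and Ssbp4 were higher by 0.22 and 0.32 on the log2 scale (edgeR adjusted p-values 0.0292 and 0.0317). The Ssbp3 call was lost with upper-quartile scaling (adjusted p = 0.0563, edgeR), library totals alone (0.0577) and without anterior replicate 1 (0.172) or 2 (0.221). The Ssbp4 call was lost with upper-quartile scaling (0.0506) and without anterior replicate 2 (0.294). Rbbp8 was called higher and Tcf12 lower (log2 fold changes 0.27 and -0.23, edgeR adjusted p-values 0.0384 and 0.0395). The Rbbp8 call was lost with upper-quartile scaling, library totals alone, the Wald test of DESeq2 and each library left out. That of Tcf12 was lost without anterior replicate 1 or 2 and without central replicate 2. The number of partners called higher was 1 with upper-quartile scaling, 2 with library totals alone and 3 with the Wald test of DESeq2. Without anterior replicate 1 it was 2 and without anterior replicate 2 it was 1, and the number called lower was 1 in each of these fits and without central replicate 2.

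The signalling loop of limb outgrowth, to which Lhx2, Lhx9 and Lmx1b have been tied, gave calls in both directions. Of its 8 genes, 7 were tested, 1 was called higher, 5 lower and 1 was not called, with a median log2 fold change of -0.54. Of all tested genes, 10.7% were called higher and 12.3% lower. Among the loop genes called lower, only Hand2, given above, kept its call under every alternative and with each library left out. Fgf10, the mesenchymal signal to the apical ridge, was the gene that rose together with Lhx2 and Lhx9, at 70.9 and 63.8 CPM against 28.7 and 24.5 CPM (log2 fold change 1.34, SE 0.11; adjusted p = 5.16e-05, edgeR). Grem1, the BMP antagonist that links Shh to the ridge, was lower at 21.9 and 28.3 CPM against 31.5 and 41.2 CPM (adjusted p = 0.0404, edgeR). That call was lost without anterior replicate 1 (0.178) and without central replicate 2 (0.148). Fgf8, made by the ridge ectoderm, had 8 and 2 counts against 177 and 946, lower in the same libraries as the ectoderm markers given above, whose part was not tested; its call (adjusted p = 0.00120, edgeR) was lost with limma-voom (0.119). The hedgehog readouts Ptch1 and Gli1 differed by -0.54 and -0.42 on the log2 scale, and both calls were lost without anterior replicate 2 (adjusted p = 0.0504 and 0.0843, edgeR). Without anterior replicate 2, the genes of the loop called higher numbered 2 and those called lower 3.

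**Figure D4:**
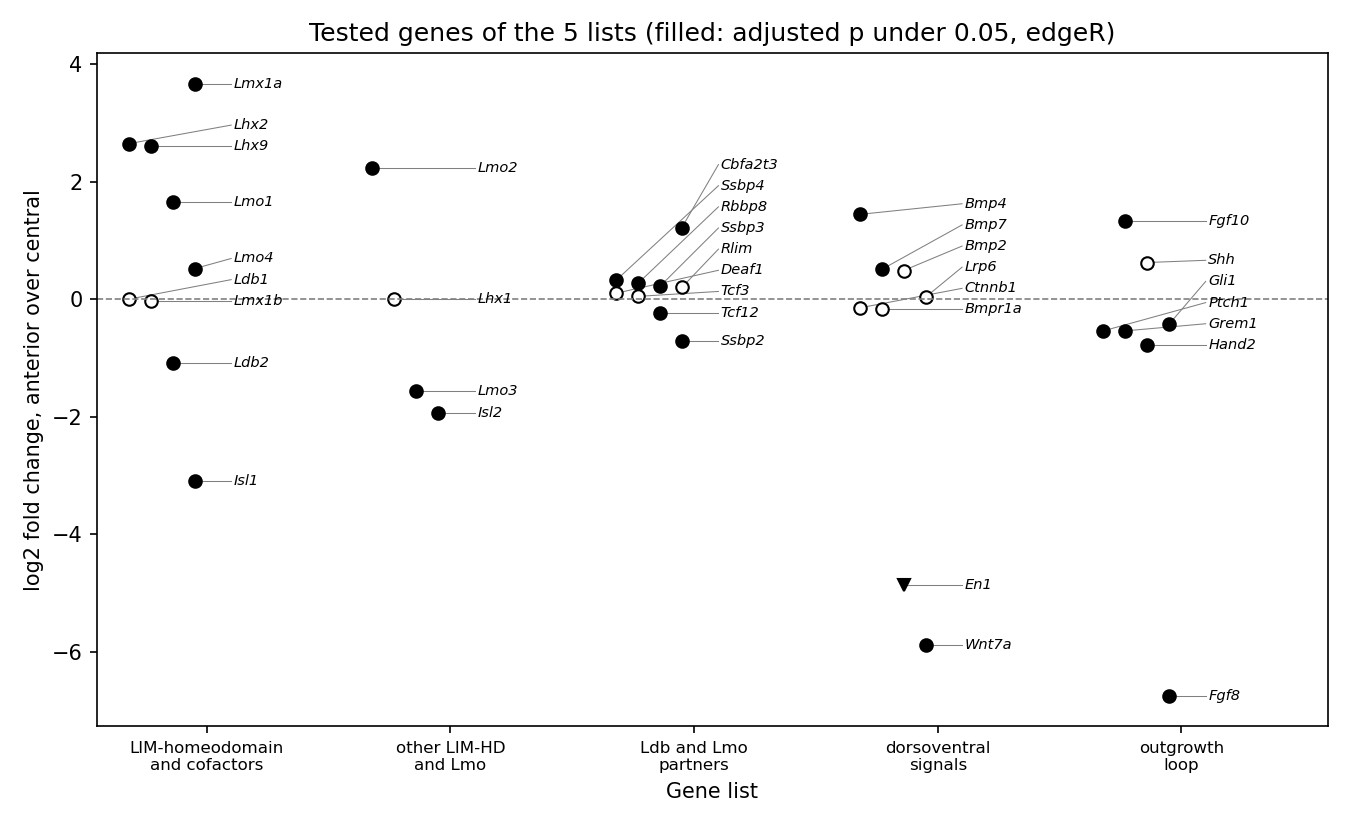
log2 fold change, anterior over central, of the tested genes in 5 lists; filled symbols passed an edgeR adjusted p-value of 0.05, symbols are spread sideways for legibility, and the triangle marks En1 at its bound against the floor of 3 counts. Of the LIM-homeodomain factors and cofactors, 5 of 9 are called above 0 and 2 below.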

How the data were processed

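Group and replicate number came from the sample titles. The authors deposited raw counts per gene symbol, not normalized. The submitters' processing notes name STAR 2.7.9a, HTSeq, DESeq2 (given as 3.16) and mm10, per the labels, without roles. The annotation and strand setting are not given in the sources used here. Among counts of 1 to 10, 72.8% to 75.6% were even, so fragments may be fewer than counts. The fit used edgeR 4.0.16 in R 4.3.3, with filterByExpr, TMM, the quasi-likelihood F test and Benjamini-Hochberg adjustment over 14610 genes, with 2 residual degrees of freedom. Each SE is the absolute log2 fold change divided by the square root of F. DESeq2 1.42.0 and limma-voom (limma 3.58.1) were alternatives. The pipeline was tested on simulated data. Floors cover counting error only. On halved counts, replicates differed by more than sampling noise (chi-square per degree of freedom 15.1 and 8.49). Gene positions and exon lengths are from GENCODE M21. All 9 genes are named. Genes of related lists are named where a result turns on them, and the 3 nearest by distance for Lhx2, Lhx9 and Lmx1b. The set of 9 genes and the lists were chosen with earlier results of these data known.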

Additional observations from a re-analysis of the deposited data

How the results depend on the processing

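The 7 calls among the 9 genes kept their direction and their side of the threshold under RLE, upper-quartile and library-total scaling, limma-voom, the Wald test of DESeq2, halved counts, filters of 1 count in total or a mean of 50, and the replicate block. The block called 3586 genes against 3351 without it and the same 7 of the 9 genes. The replicate differences of the anterior and central groups correlated at 0.064 across genes. This value alone cannot decide if a shared replicate number reflects a shared origin, and such pairing was not tested. Ldb1, near 0, changed sign with upper-quartile scaling (-0.037), library totals only (-0.030), a mean of 50 counts (-0.014) and halved counts (-0.0019). The cause was not tested.

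Fits that leave out a library assume that the lone library of a group varies like the other group. Their log2 fold changes ranged from -0.074 to 0.025 for Lmx1b, from -0.028 to 0.031 for Ldb1 and from 0.33 to 0.69 for Lmo4. They called 1941 to 3510 genes, 763 to 1788 higher and 1178 to 1722 lower, the lowest counts coming without anterior replicate 2. The sign also changed for Shh, with a range of -0.11 to 1.11, and for genes near 0, with ranges of -0.077 to 0.016 for Txndc9, -0.090 to 0.023 for Slc25a17 and -0.093 to 0.028 for Wdr7. Of 224 values for 25 other named genes under the remaining alternatives, 216 kept direction and call, 8 lost the call and 0 reversed. With each library left out, 74 of 100 such values kept direction and call, 18 lost the call, 1 gained it and 7 reversed. With 2 libraries a group, genes of few counts such as Isl1 and Lmx1a have a direction but no firm size.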
